A study of Mus musculus with 15 samples.

Results

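The LPC lesion of the mouse corpus callosum was compared with the saline injection site across the transcriptome. LPC_Ipsil is corpus callosum injected with lysophosphatidylcholine (LPC) and taken on day 4. Sham_Ipsil is corpus callosum from the saline injection site of mice with a sham operation, for which no day of its own is labelled. Each group had 3 libraries, 6 of the 15 in the series, and genes were kept by a filter on low counts that left 16795 of the 33321 entries in the count table. The other 9 libraries, tissue contralateral to LPC and both sides after the stroke-inducing agent L-NIO, entered the model to share its estimate of the spread, which every edgeR call needed. The labels give no strain, genotype, age or sex for either group and do not say whether libraries came from separate mice, so the p-values reflect variation among libraries, pooled over the 15, that could be technical.

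LPC is a detergent-like lipid that dissolves myelin where it is injected while sparing most axons. The debris is taken up by microglia, the resident macrophages of the brain, and by macrophages from blood. Oligodendrocyte precursors then divide, mature and wrap the bare axons again. In bulk tissue, fewer cells of a type and less RNA per cell cannot be told apart.

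The libraries held 14896445 to 20916606 counts, and replicates of a group differed by more than sampling noise. Values below are CPM, counts scaled to a common library size, and run in the order of replicates 1, 2 and 3. Myelin transcripts, which mark white matter, were present in every library. Mog, a protein of the outer myelin surface, had 121, 138 and 193 FPKM in LPC_Ipsil, against 185, 104 and 112 FPKM in Sham_Ipsil, where FPKM are fragments scaled by gene length and library size. Some libraries of both groups stood apart in genes of other regions. The summed level of 10 striatal neuron genes was 2359, 2715 and 1822 CPM in LPC_Ipsil, against 556, 1982 and 2965 CPM in Sham_Ipsil, so Sham_Ipsil replicate 1 was low. The summed level of 8 choroid plexus genes was 82.5, 49.1 and 554 CPM in LPC_Ipsil, against 43.8, 1440 and 83.5 CPM in Sham_Ipsil, so LPC_Ipsil replicate 3 and Sham_Ipsil replicate 2 were high. Their part in the results was not tested.

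Of the 16795 genes 871 were called at an edgeR adjusted p under 0.05, which is 5.19%. Of these 704 were higher in LPC_Ipsil (4.19% of genes tested) and 167 lower (0.994%). Changes upward were large, with 534 of the 704 at 2-fold or more, and changes downward small, with 26 of the 167. The median log2 fold change of all tested genes was 0.01. Protein-coding genes made up 683 of the higher and 164 of the lower genes, and long noncoding RNAs 6 and 1. The lower one was Miat, a nuclear RNA of neurons, with 275, 334 and 447 CPM in LPC_Ipsil, against 587, 498 and 539 CPM in Sham_Ipsil (log2 fold change -0.62 ± 0.15, where ± is the SE throughout, edgeR adjusted p = 0.0314).

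No edgeR call stood on the spread of the 6 libraries alone, where 0 genes were called, the smallest adjusted p was 0.121 and 3778 had an unadjusted p under 0.05. Each call also needed several of the 6. Without LPC_Ipsil replicate 1 or 2, or without Sham_Ipsil replicate 1 or 3, edgeR called 0 genes, with 1937, 2656, 2979 and 2722 genes at an unadjusted p under 0.05. Without Sham_Ipsil replicate 2 it called 1, Nell1, with 2777 at an unadjusted p under 0.05. Without LPC_Ipsil replicate 3 it called 1660 (9.88%), among them 848 of the 871, so the other 23 were lost. Hence every call named below was lost when any 1 of the 5 libraries other than LPC_Ipsil replicate 3 was left out, except that of Nell1 without Sham_Ipsil replicate 2. With all libraries, DESeq2 called 1512 genes, of which 1082 were higher and 430 lower, so a smaller share of its calls was upward (71.6%, against 80.8% for edgeR).

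**Figure D1:**
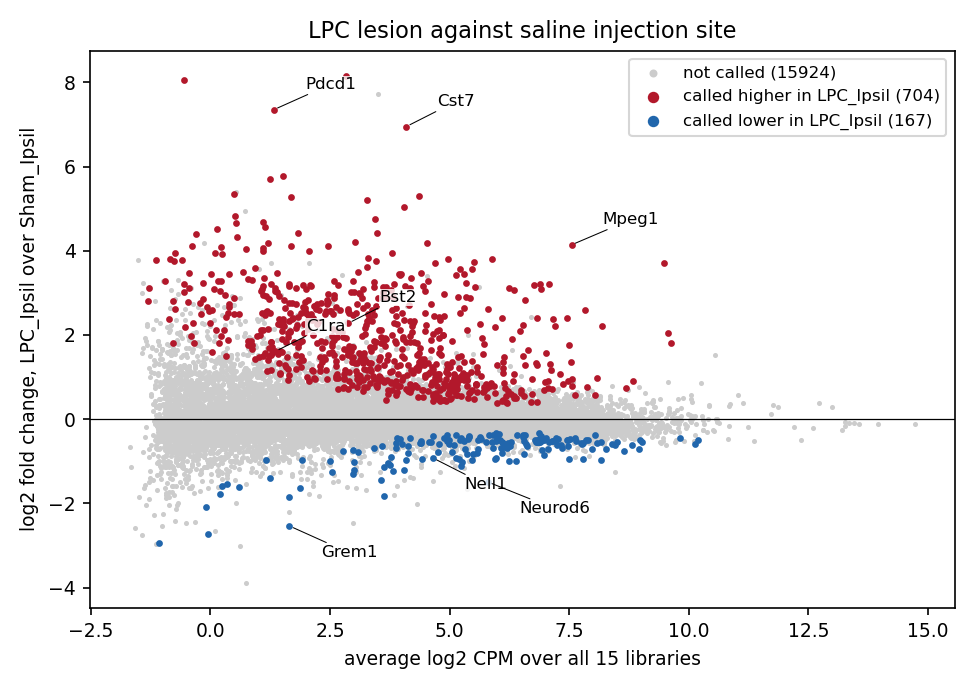
Log2 fold change of LPC_Ipsil over Sham_Ipsil against the average log2 CPM over the 15 libraries, one point per tested gene. The 704 genes called higher reach log2 fold changes above 7 (Pdcd1 at 7.35), while the 167 called lower lie mostly between 0 and -1 and include abundant genes.

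LPC_Ipsil replicate 3 stood near Sham_Ipsil in the genes that rose and near its own group in those that fell. The first principal component of the 6 libraries held 64.1% of the variance, with scores of -58.6, -35.3 and 13.9 in LPC_Ipsil, against 27.4, 26.2 and 26.4 in Sham_Ipsil. Among the 704 higher genes the median log2 level relative to the Sham_Ipsil mean was 2.08, 1.54 and 0.38 in LPC_Ipsil replicates 1, 2 and 3. Replicate 3 was above every Sham_Ipsil library for 543 of them (77.1%), against 25.8% of all tested genes. On this log2 scale it reached at least 50% of the mean of replicates 1 and 2 for 125 (17.8%). That share was 44% over all tested genes. Among the 167 lower genes the medians were -0.71, -0.60 and -0.47. Replicate 3 was below every Sham_Ipsil library for all 167, against 26.3% of all tested genes. It reached at least 50% of the mean of replicates 1 and 2 for 154 (92.2%).

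Because those genes were called with replicate 3 in the model, genes called without it were also read. That left 1345 higher genes (8.01% of those tested) and 315 lower genes (1.88%), read in replicate 3 against the same Sham_Ipsil libraries. Replicate 3 was above every Sham_Ipsil library for 806 of the higher genes (59.9%), a position that 25.8% of all tested genes held. It was below every Sham_Ipsil library for 280 of the lower genes (88.9%), where 26.3% of all tested genes were. The shares were also read among genes with changes of like size. At a log2 change of 0.5 to 1 in replicates 1 and 2, replicate 3 lay beyond every Sham_Ipsil library for 232 of 370 higher genes (62.7%, median log2 level 0.20) and for 174 of 193 lower genes (90.2%, median -0.37). At a change of 1 to 2 the numbers were 273 of 462 higher genes (59.1%) and 59 of 66 lower genes (89.4%). No test of this difference was made, because genes share libraries and are not replicates.

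**Figure D2:**
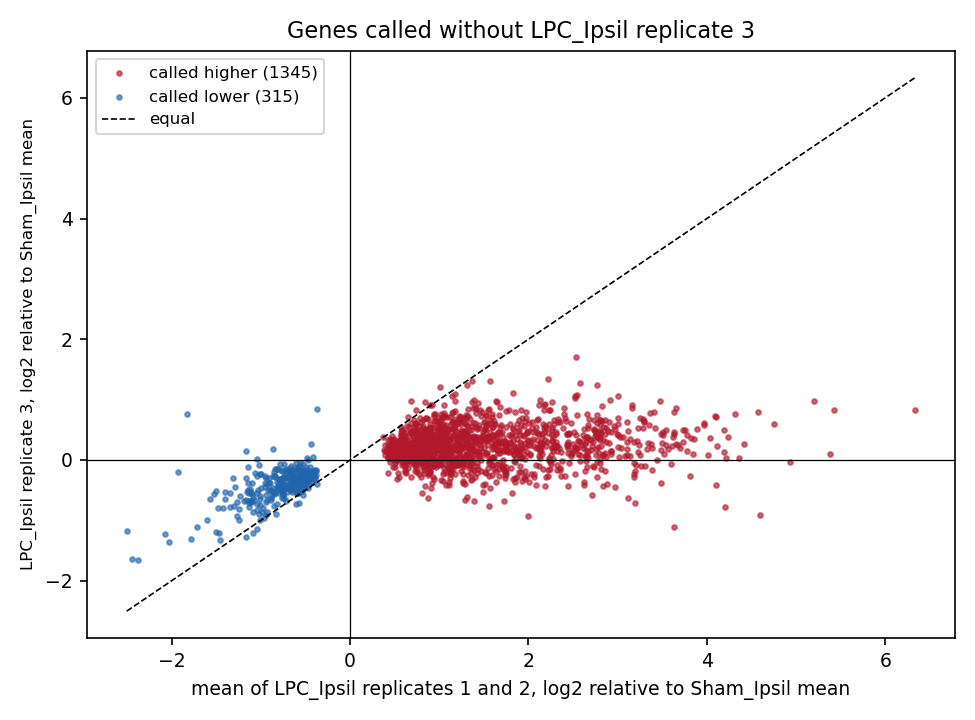
Level in LPC_Ipsil replicate 3 against the mean of replicates 1 and 2, both as log2 relative to the Sham_Ipsil mean, for genes called without replicate 3. Both axes share the Sham_Ipsil mean. The 1345 higher genes lie close to 0 on the vertical axis (median 0.24), while the 315 lower genes (median -0.38) lie nearer the dashed line of equal change.

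The genes that separated the groups most cleanly, by the ratio of the lowest LPC_Ipsil library to the highest Sham_Ipsil library, were mostly genes of immune signalling. Pdcd1, the checkpoint receptor PD-1, had 15.4, 6.8 and 0.423 CPM in LPC_Ipsil, against 0.0598, 0.0676 and 0 CPM in Sham_Ipsil. Only 2 reads lay behind the Sham_Ipsil values against 406 in LPC_Ipsil, a ratio of CPM of 192 with a 95% counting interval of 52.9 to 1590 that covers counting error only. Ifi27l2a, an interferon-induced gene, had 12, 3.73 and 3.57 CPM in LPC_Ipsil, against 0.777, 0.879 and 0.604 CPM in Sham_Ipsil (log2 fold change 3.09 ± 0.71, edgeR adjusted p = 0.0279). Replicate 3 stood level with replicate 2 there, as it did for C1ra, the complement protease C1r, at 4.47, 3.17 and 3.57 CPM in LPC_Ipsil, against 1.26, 1.08 and 1.31 CPM in Sham_Ipsil (log2 fold change 1.61 ± 0.26, edgeR adjusted p = 0.0243). Bst2, the interferon-induced protein tetherin that holds budding virus at the membrane, had 22.9, 9.4 and 7.74 CPM in LPC_Ipsil, against 1.67, 3.99 and 2.62 CPM in Sham_Ipsil (log2 fold change 2.28 ± 0.54). Fgr, a Src family kinase of myeloid cells, had 14.8, 6.99 and 0.544 CPM in LPC_Ipsil, against 0.239, 0 and 0.151 CPM in Sham_Ipsil (log2 fold change 5.71 ± 1.07). Slamf8, a receptor of macrophages, had 11.6, 6.14 and 0.967 CPM in LPC_Ipsil, against 0.478, 0.406 and 0.151 CPM in Sham_Ipsil (log2 fold change 4.18 ± 0.75). In Fgr and Slamf8 replicate 3 was far below replicates 1 and 2 yet still above Sham_Ipsil. Il1rl2, the interleukin-36 receptor, the class I gene H2-Q1 and Psmb9, a subunit of the immunoproteasome, also stood in this set. Il1rl2 had 11.4, 8.79 and 2.24 CPM in LPC_Ipsil, against 1.02, 1.01 and 0.402 CPM in Sham_Ipsil (log2 fold change 3.22 ± 0.54). Psmb9 had 8.03, 4.2 and 1.75 CPM in LPC_Ipsil, against 0.299, 0.609 and 0.905 CPM in Sham_Ipsil (log2 fold change 2.91 ± 0.58).

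Promoters of 4 of these genes are shown because they carry short letters known for factors of myeloid and interferon signalling. PU.1, encoded by Spi1, is the master transcription factor of macrophages and microglia, and interferon response elements bind interferon regulatory factors. Promoters of C1ra, Il1rl2 and Psmb9 carry neither set of letters, and none was matched for Ifi27l2a and H2-Q1. Among genes with the widest gaps downward, Myl1 carries the PU.1 letters and Adcyap1 the interferon letters. The sequences are 300 bases from RefSeq (GRCm38.p6), each reading along the gene from 250 bases before its start to 50 after. Capitals mark GAGGAAG on either strand for Pdcd1 (chr1:94052504-94052803, minus strand) and Fgr (chr4:132973845-132974144, plus strand), and GAAA, any 2 bases and GAAA on either strand for Slamf8 (chr1:172590519-172590818, minus strand) and Bst2 (chr8:71537423-71537722, minus strand), where overlapping matches run together.
Pdcd1: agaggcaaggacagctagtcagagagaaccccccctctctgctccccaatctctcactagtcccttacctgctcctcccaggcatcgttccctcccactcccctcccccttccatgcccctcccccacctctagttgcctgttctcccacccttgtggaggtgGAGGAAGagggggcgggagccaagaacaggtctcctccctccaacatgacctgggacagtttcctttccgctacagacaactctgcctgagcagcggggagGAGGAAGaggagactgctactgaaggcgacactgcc
Fgr: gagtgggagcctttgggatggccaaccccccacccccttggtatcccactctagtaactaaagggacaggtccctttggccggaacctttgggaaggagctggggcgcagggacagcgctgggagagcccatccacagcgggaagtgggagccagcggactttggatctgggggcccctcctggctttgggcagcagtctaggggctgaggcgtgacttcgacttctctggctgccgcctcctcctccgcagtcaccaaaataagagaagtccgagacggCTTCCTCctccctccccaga
Slamf8: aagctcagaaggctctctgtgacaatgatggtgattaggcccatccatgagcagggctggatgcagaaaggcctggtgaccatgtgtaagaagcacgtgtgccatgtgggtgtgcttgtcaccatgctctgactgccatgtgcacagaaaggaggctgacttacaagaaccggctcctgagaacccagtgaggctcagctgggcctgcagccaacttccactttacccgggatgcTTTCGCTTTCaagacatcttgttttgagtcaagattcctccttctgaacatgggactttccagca
Bst2: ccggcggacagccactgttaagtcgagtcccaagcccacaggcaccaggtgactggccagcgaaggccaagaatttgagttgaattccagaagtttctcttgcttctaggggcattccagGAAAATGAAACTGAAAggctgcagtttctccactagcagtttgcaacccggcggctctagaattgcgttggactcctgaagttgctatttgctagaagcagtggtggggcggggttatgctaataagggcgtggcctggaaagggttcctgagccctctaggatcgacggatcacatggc
A RefSeq promoter matched by symbol for 12423 of the 16795 tested genes. GAGGAAG stood in 137 of 550 promoters of genes called higher (24.9%), in 20 of 122 of genes called lower (16.4%) and in 1675 of the 12423 (13.5%). The interferon letters stood in 28 (5.09%), 8 (6.56%) and 370 (2.98%) of the same sets. For TGANTCA, the AP-1 letters, the shares were 8%, 4.92% and 5.09%, and for TCACGTG, letters known from lysosomal genes, 6.18%, 6.56% and 5.59%. A match is a description of letters and shows no binding, and base composition was not matched between the sets.

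**Figure D3:**
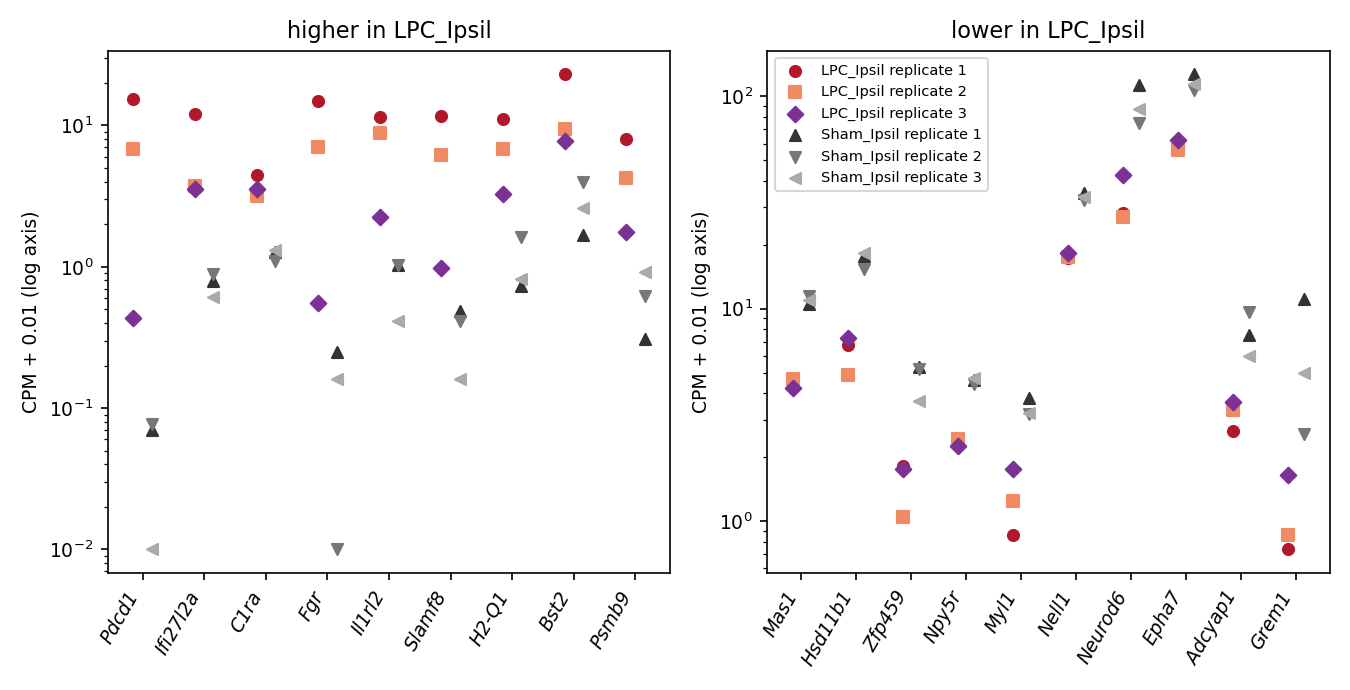
CPM (plus 0.01, log axis) in each library for genes with the widest gap between groups upward (9 shown) and downward (10 shown), LPC_Ipsil points left of Sham_Ipsil points. In the upward genes replicate 3 of LPC_Ipsil sits below replicates 1 and 2 in most. Both sets were chosen for this gap, so that all 3 LPC_Ipsil libraries lie beyond Sham_Ipsil follows from the choice.

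Among the genes with the smallest p upward, several stood well above Sham_Ipsil in replicate 3 too. The fit that gave these p used replicate 3, so its position in them is no separate support. Wipf1, which binds the actin regulator WASP, had 50.3, 40.9 and 38.2 CPM in LPC_Ipsil, against 24.5, 19.8 and 22.3 CPM in Sham_Ipsil (log2 fold change 0.96 ± 0.14, edgeR adjusted p = 0.0243). Trim25, a ubiquitin ligase of antiviral RNA sensing, had 24.5, 22.2 and 16.1 CPM in LPC_Ipsil, against 8.67, 8.86 and 8.15 CPM in Sham_Ipsil (log2 fold change 1.29 ± 0.19, edgeR adjusted p = 0.0243). Csf1, the growth factor that sustains microglia, had 105, 85.9 and 48.4 CPM in LPC_Ipsil, against 34.6, 29.3 and 28 CPM in Sham_Ipsil (log2 fold change 1.38 ± 0.21, edgeR adjusted p = 0.0243). Replicate 3 was lowest of the LPC_Ipsil libraries in each of these, though by a small step in Wipf1. Elf1, an ETS transcription factor, had 19.2, 17.7 and 13.7 CPM in LPC_Ipsil, against 10.04, 8.32 and 8.4 CPM in Sham_Ipsil. Ptafr, the receptor for the lipid mediator platelet-activating factor, had 13.1, 10.5 and 3.93 CPM in LPC_Ipsil, against 2.15, 1.28 and 1.46 CPM in Sham_Ipsil. In all 5 the lowest LPC_Ipsil library was above the highest Sham_Ipsil library. Such a gap between the groups was present in 2350 of all tested genes upward (14%) and 2275 downward (13.5%).

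Most genes for signalling proteins downstream of myeloid surface receptors rose. Of 28 kinases and adaptors 22 were called higher and 0 lower, with a median log2 fold change of 2.24 over the list. Vav1, an exchange factor for Rac, had 42.7, 28 and 5.87 CPM in LPC_Ipsil, against 3.89, 4.39 and 3.67 CPM in Sham_Ipsil (log2 fold change 2.68 ± 0.51, edgeR adjusted p = 0.0243). Ptpn6, the inhibitory phosphatase SHP-1, had 55.9, 25.7 and 5.14 CPM in LPC_Ipsil, against 4.07, 3.04 and 2.72 CPM in Sham_Ipsil (log2 fold change 3.14 ± 0.59). Plcg2, a phospholipase of immune receptors, had 32.6, 20.03 and 6.71 CPM in LPC_Ipsil, against 5.38, 5.34 and 4.02 CPM in Sham_Ipsil (log2 fold change 2.01 ± 0.39). In each of them replicate 3 was above Sham_Ipsil by a small step. Its list median was 0.22 relative to the Sham_Ipsil mean, against 2.87 and 2.14 in replicates 1 and 2. Without replicate 3, 26 of the 28 were called, and replicate 3 lay above every Sham_Ipsil library for 13 of those. Markers of microglia moved with these genes. The summed level of 11 homeostatic microglia markers, of which 10 were called higher, was 2591, 1765 and 496 CPM in LPC_Ipsil, against 420.45, 377 and 361 CPM in Sham_Ipsil, and their part in the result was not tested. Of 22 myeloid transcription factors 12 rose and 0 fell (median 1.17). Spi1, which encodes PU.1, had 40.4, 23.5 and 4.47 CPM in LPC_Ipsil, against 2.81, 2.98 and 2.31 CPM in Sham_Ipsil (log2 fold change 3.08 ± 0.58, edgeR adjusted p = 0.0243). Irf8, its partner in microglia, had 111, 64.5 and 11.4 CPM in LPC_Ipsil, against 6.93, 6.09 and 6.09 CPM in Sham_Ipsil (log2 fold change 3.29 ± 0.61, edgeR adjusted p = 0.0243). Irf5, Runx1 and Ikzf1 rose as well, by 2.98 ± 0.49, 3.12 ± 0.62 and 2.11 ± 0.43 on the log2 scale. Of the 17 called without replicate 3, replicate 3 was above every Sham_Ipsil library for 13.

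Fc receptors, which bind the constant part of antibodies, had 5 of 6 genes higher (median 2.81). Fcer1g, their shared signalling chain, had 80.1, 45.8 and 5.14 CPM in LPC_Ipsil, against 4.72, 4.67 and 3.42 CPM in Sham_Ipsil (log2 fold change 3.36 ± 0.70, edgeR adjusted p = 0.0245). Fcgr1, the high-affinity receptor, had 52.9, 28.1 and 5.2 CPM in LPC_Ipsil, against 5.68, 4.12 and 4.07 CPM in Sham_Ipsil (log2 fold change 2.63 ± 0.65, edgeR adjusted p = 0.0372), with replicate 3 inside the Sham_Ipsil values. Fcgrt, which recycles antibody, did not pass (log2 fold change 0.74 ± 0.20, edgeR adjusted p = 0.0501). The phagocyte NADPH oxidase, which makes superoxide in the phagosome, rose in 7 of 7 genes (median 2.91). Cybb, its catalytic subunit, had 23, 8.17 and 1.27 CPM in LPC_Ipsil, against 1.61, 0.676 and 1.21 CPM in Sham_Ipsil (log2 fold change 3.19 ± 0.79, edgeR adjusted p = 0.0353), and replicate 3 again overlapped Sham_Ipsil. Ncf1, an organizing subunit, had 72, 38.1 and 9.43 CPM in LPC_Ipsil, against 7.53, 4.94 and 5.83 CPM in Sham_Ipsil (log2 fold change 2.70 ± 0.57, edgeR adjusted p = 0.0245). Hvcn1, the proton channel that balances its charge, had 15.6, 8.98 and 1.45 CPM in LPC_Ipsil, against 1.43, 1.08 and 1.36 CPM in Sham_Ipsil (log2 fold change 2.74 ± 0.61, edgeR adjusted p = 0.0256). Here replicate 3 gave a list median of 0.12, within the span of the Sham_Ipsil libraries (-0.18 to 0.15), and it exceeded every Sham_Ipsil library for 3 of the 7.

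Most lysosomal proteases and hydrolases rose, while none of 14 tested genes on the list for the pump that acidifies the lysosome passed the edgeR test. Of 12 cathepsins, the proteases of lysosomes, 8 rose (median 1.80). Ctsd, an aspartic protease, had 3877, 2276 and 177 CPM in LPC_Ipsil, against 192, 162 and 132 CPM in Sham_Ipsil (log2 fold change 3.71 ± 0.80, edgeR adjusted p = 0.0258). Per length it reached 1513, 924 and 72 FPKM in LPC_Ipsil, against 77.5, 64.1 and 52.4 FPKM in Sham_Ipsil, and replicate 3 lay among the Sham_Ipsil values. Ctsz had 608, 321 and 41.7 CPM in LPC_Ipsil, against 35.5, 36.8 and 31.9 CPM in Sham_Ipsil (log2 fold change 3.22 ± 0.69, edgeR adjusted p = 0.0258). Ctsl had 318, 247 and 122 CPM in LPC_Ipsil, against 111, 103 and 91.1 CPM in Sham_Ipsil (log2 fold change 1.17 ± 0.26, edgeR adjusted p = 0.0255). Of 24 further hydrolases and membrane proteins of the lysosome 14 rose (median 1.20), among them Gusb, beta-glucuronidase (log2 fold change 2.91 ± 0.60), Grn, progranulin (log2 fold change 3.22 ± 0.67), and Lipa, acid lipase (log2 fold change 1.12 ± 0.25). Npc2, which hands cholesterol out of the lysosome, rose as well (log2 fold change 1.58 ± 0.35). Of 14 tested genes of the lysosomal proton pump 0 were called by edgeR (median -0.16), and 5 had an unadjusted p under 0.05. DESeq2 called 2 and voom with quality weights called 8. Here and below, voom weighted LPC_Ipsil replicates 1, 2 and 3 unequally, at 0.802, 5.7 and 0.503. The pump list held 15 genes, and the untested one, Atp6v0d2, was below the count filter. It had 25, 35 and 2 counts in LPC_Ipsil, against 1, 0 and 0 counts in Sham_Ipsil. Atp6v1d, a stalk subunit, had 138, 142 and 148 CPM in LPC_Ipsil, against 185, 204 and 181 CPM in Sham_Ipsil (log2 fold change -0.41 ± 0.12, edgeR adjusted p = 0.0562). Atp6v1a, the catalytic subunit, had 292, 313 and 354 CPM in LPC_Ipsil, against 454, 417 and 372 CPM in Sham_Ipsil (log2 fold change -0.37 ± 0.14, edgeR adjusted p = 0.142). For 8 of the 14 every LPC_Ipsil library lay below every Sham_Ipsil library, a gap that 13.5% of all tested genes had. Neurons also express this pump, and the summed level of 12 general neuronal genes was 5061, 5595 and 6168 CPM in LPC_Ipsil, against 6504, 8196 and 7301 CPM in Sham_Ipsil. What part neuronal RNA has in the pump values was not tested. Tcirg1, a pump subunit outside this list that osteoclasts use, rose, at 91.4, 72.7 and 30.4 CPM in LPC_Ipsil, against 27.1, 19.4 and 22.6 CPM in Sham_Ipsil (log2 fold change 1.49 ± 0.30, edgeR adjusted p = 0.0243).

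**Figure D4:**
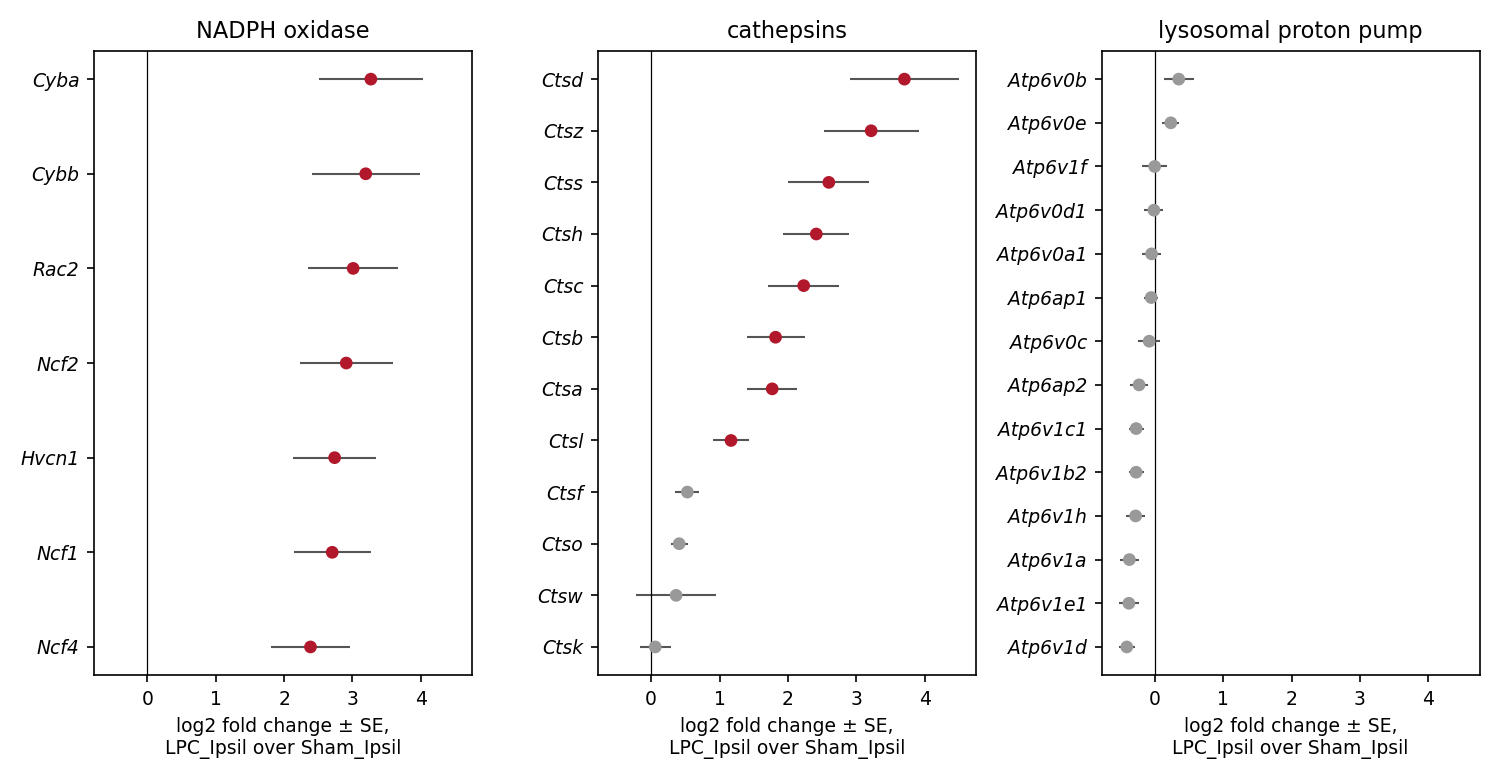
Log2 fold change of LPC_Ipsil over Sham_Ipsil with its standard error for the genes of the phagocyte NADPH oxidase, the cathepsins and the lysosomal proton pump, called genes in red and others in grey. All 7 oxidase genes and 8 of 12 cathepsins were called higher, while the 14 pump genes lie within 0.5 of 0.

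Receptors and bridges for the uptake of debris had 7 of 18 genes higher (median 0.86). Pros1, a bridge between dying membranes and TAM receptors, had 75.5, 50.6 and 15.2 CPM in LPC_Ipsil, against 11.2, 11.1 and 11 CPM in Sham_Ipsil (log2 fold change 2.09 ± 0.38, edgeR adjusted p = 0.0243). Axl, one of those receptors, had 249, 160.3 and 51.3 CPM in LPC_Ipsil, against 38.8, 40.2 and 44.6 CPM in Sham_Ipsil (log2 fold change 1.90 ± 0.42, edgeR adjusted p = 0.0262). Gas6, the other bridge, did not pass (log2 fold change 0.51 ± 0.16, edgeR adjusted p = 0.0794). Itgb5, an integrin that binds the bridge protein MFG-E8, had 438, 239 and 49.6 CPM in LPC_Ipsil, against 33.1, 35.9 and 33.2 CPM in Sham_Ipsil (log2 fold change 2.83 ± 0.59). Some sensors of microbial and damage products rose as well. Of 17 Toll-like receptors and adaptors 9 rose (median 1.55), with Tlr2 at 42.7, 21.8 and 1.63 CPM in LPC_Ipsil, against 2.39, 2.23 and 2.16 CPM in Sham_Ipsil (log2 fold change 3.28 ± 0.83, edgeR adjusted p = 0.0404). Replicate 3 of LPC_Ipsil was the lowest of the 6 libraries for Tlr2. Also raised was Unc93b1, the chaperone of endosomal Toll-like receptors, with 115, 69.3 and 18.9 CPM in LPC_Ipsil, against 14.7, 10.5 and 11.9 CPM in Sham_Ipsil (log2 fold change 2.45 ± 0.48). Of 20 genes of interleukin-1, TNF and the inflammasome 9 rose (median 1.89). Pycard, the adaptor ASC, had 20.04, 10.5 and 2.42 CPM in LPC_Ipsil, against 2.39, 1.69 and 1.71 CPM in Sham_Ipsil (log2 fold change 2.51 ± 0.51). Casp1, the protease that matures interleukin-1 beta, had 8.99, 5.72 and 1.45 CPM in LPC_Ipsil, against 1.14, 1.35 and 1.26 CPM in Sham_Ipsil (log2 fold change 2.11 ± 0.50). Gsdmd, which the same protease cuts to form a pore, had 14.4, 10.1 and 3.02 CPM in LPC_Ipsil, against 2.99, 2.16 and 2.36 CPM in Sham_Ipsil (log2 fold change 1.87 ± 0.43).

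Most genes for checkpoint and inhibitory receptors rose too. Of 19 checkpoint and inhibitory receptor genes 12 rose and 0 fell (median 2.01). Havcr2, encoding TIM-3, had 65.2, 37.2 and 5.26 CPM in LPC_Ipsil, against 4.6, 4.53 and 3.77 CPM in Sham_Ipsil (log2 fold change 3.06 ± 0.61, edgeR adjusted p = 0.0243). Vsir, encoding VISTA, had 190.2, 112 and 29.99 CPM in LPC_Ipsil, against 22.2, 23.2 and 23.8 CPM in Sham_Ipsil (log2 fold change 2.26 ± 0.48, edgeR adjusted p = 0.0247). Cd33, a sialic acid receptor, had 90.4, 64.8 and 24.1 CPM in LPC_Ipsil, against 17.7, 14 and 12.9 CPM in Sham_Ipsil (log2 fold change 2.01 ± 0.34, edgeR adjusted p = 0.0243). Replicate 3 stood closer to Sham_Ipsil than to the other LPC_Ipsil libraries in these. Cd274, encoding the PD-1 ligand PD-L1, had 6.1, 5.53 and 2.96 CPM in LPC_Ipsil, against 1.67, 1.01 and 2.51 CPM in Sham_Ipsil (log2 fold change 1.47 ± 0.33, edgeR adjusted p = 0.0258). These receptors are also known from T cells, whose defining transcripts were near 0. Cd3e had at most 0.0472 CPM in LPC_Ipsil and 0 in Sham_Ipsil, and Cd3d at most 0.0605 in LPC_Ipsil and 0.27 in Sham_Ipsil. Of 9 T cell markers, 6 stayed at or under 1 CPM in all 6 libraries and 1 was at 0 in all. Their summed level was 23.1, 33.6 and 18.6 CPM in LPC_Ipsil, against 4.9, 24.7 and 34 CPM in Sham_Ipsil, most of it Cd4. Cd4 had 20.2, 30 and 17 CPM in LPC_Ipsil, against 3.71, 23.1 and 31.9 CPM in Sham_Ipsil. It was not called (edgeR adjusted p = 0.911), and which cells it came from was not tested. Icos, a T cell costimulator, was called (log2 fold change 2.81 ± 0.73, edgeR adjusted p = 0.0408), at 1.33, 1.32 and 0.302 CPM in LPC_Ipsil, against 0.12, 0.135 and 0.151 CPM in Sham_Ipsil. Of 11 neutrophil markers 10 stayed at or under 1 CPM, Ly6g was at 0 in all, and Csf3r alone rose, at 192, 109 and 15.7 CPM in LPC_Ipsil, against 15.6, 11.4 and 6.74 CPM in Sham_Ipsil (log2 fold change 3.23 ± 0.64, edgeR adjusted p = 0.0243). Ccr2, the defining receptor of blood monocytes, had 3.2, 0.945 and 0.121 CPM in LPC_Ipsil, against 0.837, 0.27 and 1.01 CPM in Sham_Ipsil and was not called (edgeR adjusted p = 0.527). Cd14, a co-receptor for lipopolysaccharide that microglia also express, was the one monocyte marker called, at 33.4, 16.8 and 2.78 CPM in LPC_Ipsil, against 2.63, 1.89 and 2.01 CPM in Sham_Ipsil (log2 fold change 3.02 ± 0.64, edgeR adjusted p = 0.0245). The 9 monocyte markers summed to 173, 118 and 38.9 CPM in LPC_Ipsil, against 42.3, 18.5 and 42.3 CPM in Sham_Ipsil, and 5 of them stayed at or under 1 CPM. Fn1, fibronectin, made up most of that sum, at 133, 96.2 and 34 CPM in LPC_Ipsil, against 36.3, 15.9 and 37.4 CPM in Sham_Ipsil.

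In class I antigen presentation and the interferon response replicate 3 also lay above Sham_Ipsil. Of 13 class I and immunoproteasome genes 6 rose (median 2.203), and list medians relative to Sham_Ipsil were 2.51, 1.85 and 0.59 in the LPC_Ipsil libraries. H2-K1, a class I heavy chain, had 147, 78 and 17.8 CPM in LPC_Ipsil, against 9.03, 14.9 and 8.55 CPM in Sham_Ipsil (log2 fold change 2.91 ± 0.69, edgeR adjusted p = 0.0328). Tap1, which carries peptides to it, had 15.3, 7.75 and 4.47 CPM in LPC_Ipsil, against 2.93, 2.03 and 3.47 CPM in Sham_Ipsil (log2 fold change 1.70 ± 0.40, edgeR adjusted p = 0.028). Genes of this family are close copies, so reads may be split among them. Without replicate 3, 11 of the 13 were called, and replicate 3 lay above every Sham_Ipsil library for all 11. Of 22 interferon response genes 6 rose (median 0.998), with list medians of 1.17, 0.68 and 0.66. Gbp3, a guanylate-binding protein, had 17.4, 10.5 and 10.5 CPM in LPC_Ipsil, against 4.18, 6.56 and 6.64 CPM in Sham_Ipsil (log2 fold change 1.14 ± 0.28, edgeR adjusted p = 0.0317). Irf7, a regulator of type I interferon, had 13.1, 7.8 and 7.5 CPM in LPC_Ipsil, against 1.55, 2.3 and 3.62 CPM in Sham_Ipsil and did not pass (log2 fold change 1.91 ± 0.57, edgeR adjusted p = 0.0691). For 14 of the 22 every LPC_Ipsil library lay above every Sham_Ipsil library, a gap that 14% of all tested genes had. For all 8 called without replicate 3, that library was above Sham_Ipsil.

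**Figure D5:**
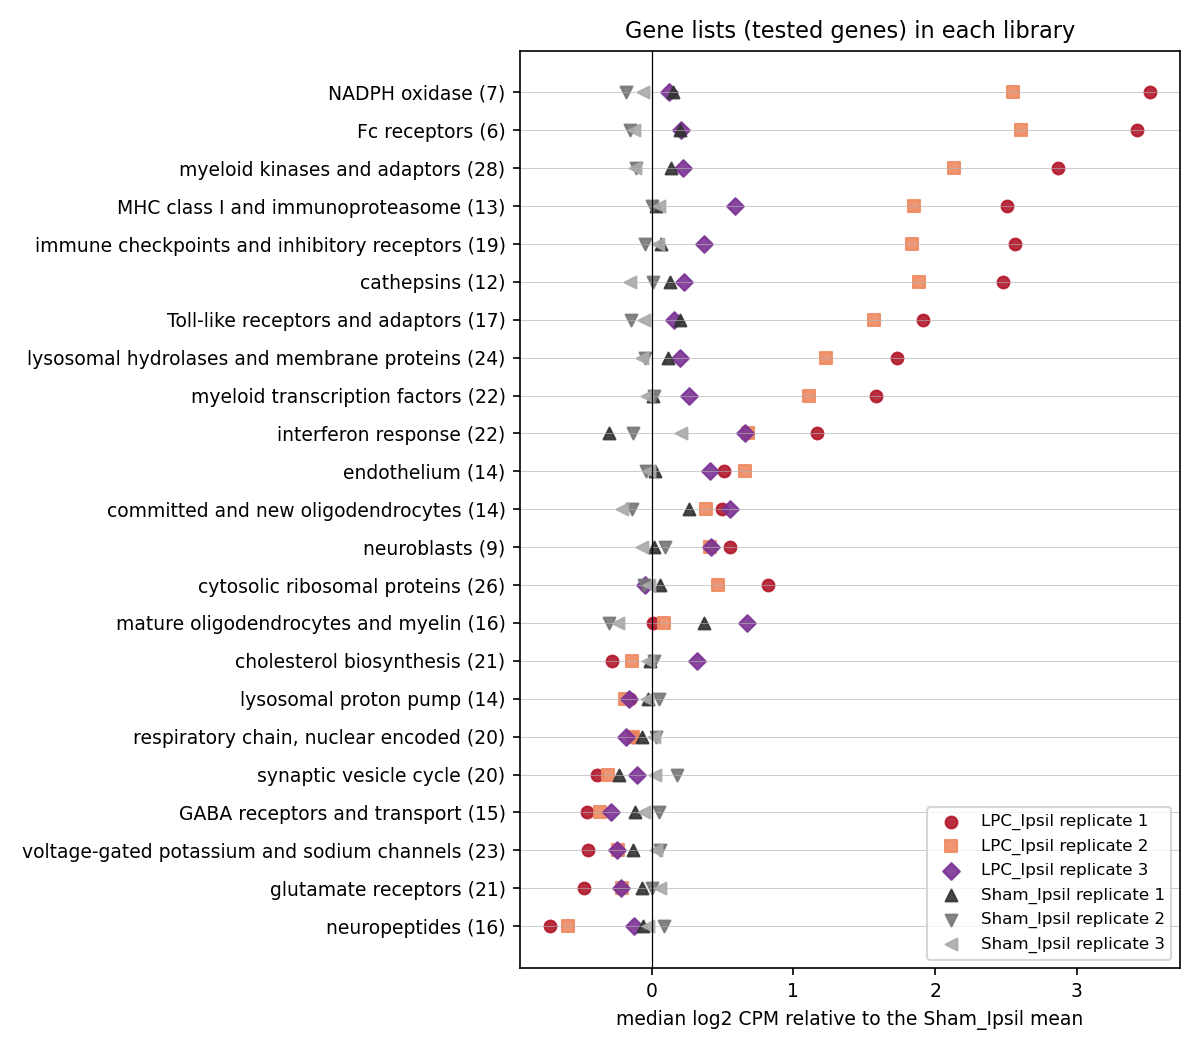
Median log2 CPM relative to the Sham_Ipsil mean over the tested genes of each list (number in brackets), one point per library. LPC_Ipsil replicate 3 lies beside Sham_Ipsil for the oxidase and Fc receptor lists, beside replicate 2 for the interferon response (0.66 and 0.68), and beside the other LPC_Ipsil libraries for endothelium, neuroblasts and the potassium and sodium channels.

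Enzymes and receptors for the injected class of lipid had 8 of 21 genes higher and 0 lower (median 0.43). Lpar5, a receptor for lysophosphatidic acid, had 2.66, 1.8 and 0.665 CPM in LPC_Ipsil, against 0.239, 0.0676 and 0.0503 CPM in Sham_Ipsil (log2 fold change 3.78 ± 0.70, edgeR adjusted p = 0.0243). Abhd4, a lysophospholipase, had 122, 115 and 109 CPM in LPC_Ipsil, against 79, 71.1 and 62.4 CPM in Sham_Ipsil (log2 fold change 0.70 ± 0.13, edgeR adjusted p = 0.0243), a small change that all 3 LPC_Ipsil libraries shared. Lpcat3, which turns LPC back into phosphatidylcholine, had 29.6, 26.9 and 20.4 CPM in LPC_Ipsil, against 19.6, 17.6 and 16.6 CPM in Sham_Ipsil (log2 fold change 0.51 ± 0.13, edgeR adjusted p = 0.0401), and the related Lpcat1 and Lpcat2 rose by 0.64 ± 0.16 and 1.40 ± 0.37 on the log2 scale. Of 14 genes of the eicosanoid pathway, which makes lipid mediators from arachidonic acid, 5 rose (median 1.26). Ptgs1, cyclooxygenase 1, had 52.6, 34.9 and 16.3 CPM in LPC_Ipsil, against 12, 13.9 and 10.5 CPM in Sham_Ipsil (log2 fold change 1.52 ± 0.32, edgeR adjusted p = 0.0243). Ptgs2, the inducible cyclooxygenase, had 6.4, 5.53 and 4.41 CPM in LPC_Ipsil, against 5.98, 10.5 and 12.6 CPM in Sham_Ipsil and did not pass (log2 fold change -0.83 ± 0.42, edgeR adjusted p = 0.283). Tbxas1, thromboxane synthase, and Hpgds, prostaglandin D synthase of myeloid cells, rose by 3.13 ± 0.66 and 2.12 ± 0.45 on the log2 scale.

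Energy metabolism genes changed in a few members. Of 22 glycolysis and lactate genes 3 rose, Hk2 and Hk3, both hexokinases, and Slc16a3, a lactate exporter (median 0.02 over the list). Hk2 had 55.2, 34.6 and 6.77 CPM in LPC_Ipsil, against 4.54, 4.33 and 3.22 CPM in Sham_Ipsil (log2 fold change 3.001 ± 0.53, edgeR adjusted p = 0.0243). Hk1, the hexokinase of neurons, had 213, 206 and 232 CPM in LPC_Ipsil, against 207, 276 and 250.5 CPM in Sham_Ipsil and did not pass (log2 fold change -0.17 ± 0.14, edgeR adjusted p = 0.549). Ucp2, a mitochondrial carrier abundant in macrophages, had 222, 127 and 19.8 CPM in LPC_Ipsil, against 16.1, 15.8 and 10.01 CPM in Sham_Ipsil (log2 fold change 3.14 ± 0.70, edgeR adjusted p = 0.0277). Of 20 nuclear-encoded respiratory chain genes 0 were called by edgeR (median -0.15), 3 had an unadjusted p under 0.05, DESeq2 called 1 and voom 6. Ndufs1, a complex I subunit, had 82.6, 88.3 and 91.8 CPM in LPC_Ipsil, against 124, 109 and 106 CPM in Sham_Ipsil (log2 fold change -0.37 ± 0.11, edgeR adjusted p = 0.069). Of 26 ribosomal protein genes edgeR called 0 too, with 7 at an unadjusted p under 0.05, 1 called by DESeq2 and 23 by voom. The list median was 0.46, with medians relative to Sham_Ipsil of 0.82, 0.47 and -0.04 in LPC_Ipsil replicates 1, 2 and 3. Iron handling had 4 of 15 genes higher (median 0.61). Slc40a1, the iron exporter ferroportin, had 20.8, 21.9 and 12.5 CPM in LPC_Ipsil, against 9.09, 11.1 and 9.86 CPM in Sham_Ipsil (log2 fold change 0.88 ± 0.21, edgeR adjusted p = 0.0283). Ftl1, the light chain of ferritin, had 275, 184 and 66.9 CPM in LPC_Ipsil, against 55.8, 52.1 and 60.6 CPM in Sham_Ipsil (log2 fold change 1.64 ± 0.44, edgeR adjusted p = 0.0496). Tfrc, the transferrin receptor for uptake, had 77.1, 96.7 and 108 CPM in LPC_Ipsil, against 136, 123 and 129 CPM in Sham_Ipsil without passing (log2 fold change -0.46 ± 0.13, edgeR adjusted p = 0.0534).

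Some genes of cytokine pathways rose. Of 18 TGF-beta pathway genes 6 rose (median 0.51). Tgfbr2, the ligand-binding receptor, had 156, 86.2 and 30.1 CPM in LPC_Ipsil, against 19.1, 18.1 and 10.6 CPM in Sham_Ipsil (log2 fold change 2.51 ± 0.45, edgeR adjusted p = 0.0243). Smad7, the inhibitor the pathway induces, had 49.1, 51.3 and 52.8 CPM in LPC_Ipsil, against 37.5, 36.2 and 34.5 CPM in Sham_Ipsil (log2 fold change 0.50 ± 0.13, edgeR adjusted p = 0.038), with replicate 3 highest and an adjusted p of 0.0578 without it. Of 13 genes of gp130 cytokines and STAT3 signalling 5 rose (median 0.69). Stat3 itself had 82.8, 67.8 and 60.2 CPM in LPC_Ipsil, against 49, 42.7 and 42.3 CPM in Sham_Ipsil (log2 fold change 0.65 ± 0.16, edgeR adjusted p = 0.0297). The receptor for interleukin-6, Il6ra, rose by 1.73 ± 0.38 on the log2 scale. In the bone morphogenetic protein (BMP) list 1 of 18 genes was called (5.56%, against 5.19% of all tested genes). It was the antagonist Grem1, at 0.724, 0.85 and 1.63 CPM in LPC_Ipsil, against 11.1, 2.57 and 4.98 CPM in Sham_Ipsil (log2 fold change -2.54 ± 0.69, edgeR adjusted p = 0.048). Sham_Ipsil replicate 1 was highest there. Purine receptors had 6 of 16 genes higher (median 0.58). P2ry6, the receptor for UDP that triggers uptake by microglia, had 34, 20.6 and 4.6 CPM in LPC_Ipsil, against 2.45, 3.04 and 3.37 CPM in Sham_Ipsil (log2 fold change 2.73 ± 0.57, edgeR adjusted p = 0.0243).

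Lists of several other cell types had medians above Sham_Ipsil by a small amount in all LPC_Ipsil libraries, replicate 3 included. Of 14 genes of committed and new oligodendrocytes 4 rose (median 0.52). Their list medians were 0.50, 0.39 and 0.55 in LPC_Ipsil, against 0.26, -0.14 and -0.21 in Sham_Ipsil, so Sham_Ipsil replicate 1 was near LPC_Ipsil. Sirt2, a deacetylase of oligodendrocytes, had 327, 303 and 365 CPM in LPC_Ipsil, against 273, 200.2 and 196 CPM in Sham_Ipsil (log2 fold change 0.57 ± 0.16, edgeR adjusted p = 0.0495). Kif19a had 19.98, 17.7 and 24 CPM in LPC_Ipsil, against 13.1, 10.3 and 9.05 CPM in Sham_Ipsil (log2 fold change 0.93 ± 0.25, edgeR adjusted p = 0.0427). Without replicate 3 neither was called, at edgeR adjusted p of 0.0952 for Sirt2 and 0.0771 for Kif19a. That fit still called 3 of the 14 higher, and replicate 3 was above every Sham_Ipsil library for all 3. Gpr17, a marker of committed precursors, had 250, 183 and 188 CPM in LPC_Ipsil, against 140, 97.6 and 95 CPM in Sham_Ipsil. It was called with all libraries (edgeR adjusted p = 0.048) and without replicate 3 (edgeR adjusted p = 0.0361). Of 14 endothelial genes 2 rose (median 0.58). For 11 of them every LPC_Ipsil library lay above every Sham_Ipsil library, as in 14% of all tested genes. Slc2a1, which carries glucose into the brain, had 74.7, 73.7 and 68.1 CPM in LPC_Ipsil, against 46.5, 46.9 and 46.4 CPM in Sham_Ipsil (log2 fold change 0.63 ± 0.14, edgeR adjusted p = 0.0262). Tie1, an endothelial receptor kinase, had 10.2, 11.6 and 8.83 CPM in LPC_Ipsil, against 6.64, 4.39 and 5.33 CPM in Sham_Ipsil (log2 fold change 0.90 ± 0.24, edgeR adjusted p = 0.0456). Of 9 neuroblast genes 2 rose (median 0.51), the transcription factors Sox4 and Sox11, which precursors of oligodendrocytes also express. Sox4 had 58.2, 41.4 and 39.2 CPM in LPC_Ipsil, against 28.3, 30.4 and 25.2 CPM in Sham_Ipsil (log2 fold change 0.73 ± 0.15, edgeR adjusted p = 0.0243). Sox11 had 44.5, 39.6 and 36 CPM in LPC_Ipsil, against 25.9, 24.3 and 26 CPM in Sham_Ipsil (log2 fold change 0.66 ± 0.16, edgeR adjusted p = 0.0307). Dcx, the defining neuroblast gene, had 57, 55.8 and 51.8 CPM in LPC_Ipsil, against 49.9, 48.1 and 49.1 CPM in Sham_Ipsil and did not pass (log2 fold change 0.16 ± 0.16, edgeR adjusted p = 0.618). Srebf1, a regulator of lipid synthesis, had 66.2, 67.2 and 61.8 CPM in LPC_Ipsil, against 42.8, 47.9 and 44 CPM in Sham_Ipsil (log2 fold change 0.54 ± 0.11, edgeR adjusted p = 0.0243). Sema4d, a semaphorin of oligodendrocytes, had 192, 172 and 198 CPM in LPC_Ipsil, against 118, 93.6 and 92.9 CPM in Sham_Ipsil (log2 fold change 0.88 ± 0.19, edgeR adjusted p = 0.0243).

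No mature myelin gene passed the test. Of 16, edgeR and DESeq2 called 0, 2 had an unadjusted p under 0.05 and voom called 2, and the list median was 0.29 with all libraries and 0.05 without LPC_Ipsil replicate 3. Their summed level was 22170, 21913 and 33665 CPM in LPC_Ipsil, against 27526, 17186 and 17769 CPM in Sham_Ipsil, so LPC_Ipsil replicate 3 was highest and Sham_Ipsil replicate 1 next. Replicate 3 also stood highest in genes of cholesterol synthesis, which myelin growth needs. Of those 21, edgeR and DESeq2 called 0, 0 had an unadjusted p under 0.05 and voom called 1, and their list medians were -0.28, -0.14 and 0.32 in the LPC_Ipsil libraries. Hmgcs1, HMG-CoA synthase of sterol synthesis, had 216, 249 and 601 CPM in LPC_Ipsil, against 294, 289.6 and 263 CPM in Sham_Ipsil. It was among the 8 genes in which replicate 3 exceeded the other 5 libraries most. Among the genes in which it lay farthest below were Dusp6, a phosphatase of the ERK pathway, and Dio2, which activates thyroid hormone in astrocytes. Dusp6 had 59.3, 53.5 and 29.3 CPM in LPC_Ipsil, against 51.5, 52.1 and 54.5 CPM in Sham_Ipsil. Dio2 had 123, 98.8 and 57 CPM in LPC_Ipsil, against 97.2, 102 and 96.5 CPM in Sham_Ipsil. These 3 were chosen by their values in replicate 3 and carry no test.

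Genes called lower were below every Sham_Ipsil library in all 3 LPC_Ipsil libraries, a gap that 13.5% of all tested genes had. Their calls used all 3 libraries, so this gap is no separate support. Of 315 genes called lower without LPC_Ipsil replicate 3, that library was below every Sham_Ipsil library for 280 (88.9%). Nell1, a secreted protein with growth factor-like repeats, had 17.4, 17.6 and 18.3 CPM in LPC_Ipsil, against 34.9, 32.6 and 33.6 CPM in Sham_Ipsil (log2 fold change -0.92 ± 0.11, edgeR adjusted p = 0.00743), the smallest p of the comparison. Fstl5, a follistatin-like secreted protein, had 14.4, 12.7 and 14.3 CPM in LPC_Ipsil, against 24.9, 25.2 and 22.3 CPM in Sham_Ipsil (log2 fold change -0.81 ± 0.12, edgeR adjusted p = 0.0243). These genes and the next ones were lower by less than 2-fold. Septin6, a cytoskeletal GTPase, had 40.4, 49.7 and 53.4 CPM in LPC_Ipsil, against 82.7, 87.3 and 79.2 CPM in Sham_Ipsil (log2 fold change -0.80 ± 0.12). Gpr22, an orphan receptor, had 24.7, 23.9 and 30.4 CPM in LPC_Ipsil, against 57.8, 47.7 and 46.4 CPM in Sham_Ipsil (log2 fold change -0.94 ± 0.15). Wide gaps between the groups also belonged to receptors and an enzyme of hormone signalling. Mas1, the receptor for angiotensin-(1-7), had 4.59, 4.63 and 4.23 CPM in LPC_Ipsil, against 10.5, 11.5 and 11 CPM in Sham_Ipsil (log2 fold change -1.29 ± 0.28, edgeR adjusted p = 0.0243). Hsd11b1, which regenerates active glucocorticoid, had 6.7, 4.87 and 7.26 CPM in LPC_Ipsil, against 17.7, 15.4 and 18.4 CPM in Sham_Ipsil (log2 fold change -1.45 ± 0.28, edgeR adjusted p = 0.0243). Npy5r, a neuropeptide Y receptor, had 2.29, 2.41 and 2.24 CPM in LPC_Ipsil, against 4.6, 4.39 and 4.73 CPM in Sham_Ipsil (log2 fold change -0.98 ± 0.22, edgeR adjusted p = 0.0247). In these 3 no LPC_Ipsil value reaches a Sham_Ipsil value, the gap for which they were chosen. Bdnf, the neurotrophin made by excitatory neurons, had 12.1, 6.47 and 8.22 CPM in LPC_Ipsil, against 19.3, 19.4 and 17.8 CPM in Sham_Ipsil (log2 fold change -1.08 ± 0.25, edgeR adjusted p = 0.028). Bmal1, a core gene of the circadian clock, had 30.9, 31.8 and 31.6 CPM in LPC_Ipsil, against 42.7, 44.5 and 43.5 CPM in Sham_Ipsil (log2 fold change -0.47 ± 0.10, edgeR adjusted p = 0.0247). It was the only one of 16 clock genes called (6.25%, against 5.19% of all tested genes).

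Receptors and channels of neurons were among the genes that fell. Of 15 GABA receptor and transport genes 3 fell and 0 rose (median -0.28). Of 21 glutamate receptor genes 3 fell (median -0.36). Grin2a, an NMDA receptor subunit of mature synapses, had 122, 119 and 160.0 CPM in LPC_Ipsil, against 290.1, 231 and 257 CPM in Sham_Ipsil (log2 fold change -0.96 ± 0.24, edgeR adjusted p = 0.0325). Gria3, an AMPA receptor subunit, had 171, 209.9 and 205 CPM in LPC_Ipsil, against 261, 284 and 279.7 CPM in Sham_Ipsil (log2 fold change -0.49 ± 0.12, edgeR adjusted p = 0.028). Of 23 voltage-gated potassium and sodium channel genes 3 fell (median -0.32). Scn3b, a sodium channel beta subunit, had 94.5, 88.9 and 109 CPM in LPC_Ipsil, against 192, 155 and 181 CPM in Sham_Ipsil (log2 fold change -0.85 ± 0.20, edgeR adjusted p = 0.0285). The potassium channels Kcnb2 and Kcnc2 changed by -0.98 ± 0.24 and -0.66 ± 0.18 on the log2 scale. For 12 of the 23 every LPC_Ipsil library lay below every Sham_Ipsil library, against 13.5% of all tested genes.

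Of 20 synaptic vesicle genes 3 fell (median -0.26), including Sv2b, a vesicle glycoprotein, at 209.6, 235 and 263 CPM in LPC_Ipsil, against 303, 391 and 332 CPM in Sham_Ipsil (log2 fold change -0.54 ± 0.13, edgeR adjusted p = 0.0301). Slc17a6, the vesicular glutamate transporter of thalamic and other subcortical neurons, had 6.28, 3.5 and 7.74 CPM in LPC_Ipsil, against 37.5, 10.8 and 13.7 CPM in Sham_Ipsil (log2 fold change -1.83 ± 0.46, edgeR adjusted p = 0.0373), with Sham_Ipsil replicate 1 far above the rest. Of 16 neuropeptide genes 2 fell (median -0.52). Crhbp, which binds corticotropin-releasing hormone, had 4.95, 8.46 and 10.6 CPM in LPC_Ipsil, against 23.7, 14.7 and 18.3 CPM in Sham_Ipsil (log2 fold change -1.24 ± 0.24, edgeR adjusted p = 0.0243). Adcyap1, which encodes the peptide PACAP, had 2.66, 3.31 and 3.63 CPM in LPC_Ipsil, against 7.53, 9.6 and 5.98 CPM in Sham_Ipsil (log2 fold change -1.26 ± 0.32, edgeR adjusted p = 0.0336). Replicate 3 was the highest LPC_Ipsil library for both. Axon guidance genes went both ways. Of 30, Sema4d and Plxnb2 rose and Epha4 and Epha5 fell, with Epha5 at 76.8, 66.1 and 85.7 CPM in LPC_Ipsil, against 140.2, 134 and 134 CPM in Sham_Ipsil (log2 fold change -0.84 ± 0.22, edgeR adjusted p = 0.0414). Epha7, another ephrin receptor, had 57.6, 56.1 and 62.1 CPM in LPC_Ipsil, against 127, 108 and 114 CPM in Sham_Ipsil (log2 fold change -0.99 ± 0.17, edgeR adjusted p = 0.0243).

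The counts for general neuronal genes differed between tools. Of 12 general neuronal genes edgeR called 1, which fell (8.33%, against 5.19% of all tested genes called). It was Nefl, the light neurofilament chain, at 158, 152 and 175 CPM in LPC_Ipsil, against 193, 293 and 234 CPM in Sham_Ipsil (log2 fold change -0.57 ± 0.16, edgeR adjusted p = 0.0485). The list median was -0.38. Of the 12, 8 had an unadjusted p under 0.05, DESeq2 called 5 and voom 8, and edgeR without LPC_Ipsil replicate 3 called 5 lower. For 7 every LPC_Ipsil library lay below every Sham_Ipsil library, against 13.5% of all tested genes. Snap25, a protein of vesicle fusion, had 1278, 1350 and 1539 CPM in LPC_Ipsil, against 1691, 2244 and 1840 CPM in Sham_Ipsil and did not pass (log2 fold change -0.47 ± 0.14, edgeR adjusted p = 0.0722). Rbfox3, the nuclear marker NeuN, and Gad1, the enzyme that makes GABA, had log2 fold changes of -0.19 ± 0.15 and -0.12 ± 0.15 without passing. Neurod6, a transcription factor of cortical excitatory neurons, was the one gene called of 11 in its list (9.09%, against 5.19% of all tested genes). It had 28.3, 27.2 and 42.6 CPM in LPC_Ipsil, against 114, 75.3 and 87.7 CPM in Sham_Ipsil (log2 fold change -1.50 ± 0.34, edgeR adjusted p = 0.0262). The list's median was -0.22, with -0.55, -0.44 and -0.02 in the LPC_Ipsil libraries. How much grey matter each piece of tissue held is not given in the labels, and its part in these values was not tested.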

How the data were processed

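Total RNA of corpus callosum was rRNA-depleted, poly(A)-purified and sequenced in pairs on an Illumina NovaSeq, per the labels' protocols. HISAT2 2.2.1, the build GRCm39 and R 4.4.2 are named in the submitters' processing notes. For the counting program, annotation and strand the sources used here give nothing, so overlapping and antisense genes cannot be told apart. The authors deposited raw read counts per gene and, beside them, FPKM, which are scaled by gene length and library size. All 15 libraries matched a table column, leaving 0 columns unmatched, and 74 repeated symbols were kept as separate rows.

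Here edgeR 4.0.16 (R 4.3.3) was run on the deposited counts with TMM scaling, a filter by group (minimum count 10, minimum total 15), robust quasi-likelihood fits of 5 group means and Benjamini-Hochberg adjustment over all 16795 genes, calling genes at an adjusted p under 0.05. The common dispersion was 0.0453. The SE was derived from the test, as the absolute log2 fold change over the square root of its F statistic. FPKM were used to show levels per length and in alternative fits. Relative levels are log2 of CPM plus 0.5 over the Sham_Ipsil mean plus 0.5. Replicate pairs of a group differed by a chi-square of 10.1 to 63.7 per degree of freedom, so no library was counted as a duplicate. The calculation was tested on simulated data. Alternatives used DESeq2 1.42.0 and limma 3.58.1, and lists and figures Python 3.11.15, pandas 2.3.3 and matplotlib 3.10.9.

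The comparison, its genes and the 85 lists were chosen with earlier results of these data known, so the lists carry no test of their own. Genes were named by rule: the 10 largest changes in each direction without overlap, the 6 smallest p in each direction, the 10 widest gaps between groups in each direction, up to 5 members with the smallest p of each list, the 8 genes in which LPC_Ipsil replicate 3 lay farthest above or below the others, and cell type markers. For the largest changes, gaps and replicate 3, an average log2 CPM of at least 1 was required. Some genes were named outside the rule for their role or as the contrast to a called gene, after their values were seen: Miat, Vav1, Plcg2, Ikzf1, Fcgrt, Cybb, Gas6, Tlr2, Casp1, Gsdmd, Vsir, Cd274, Irf7, Lpcat2, Lpcat3, Ptgs2, Hk1, Tcirg1 and Dcx. So were Atp6v0d2 and Ly6g, list genes below the count filter. Some genes picked this way are left out of the text.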

Additional observations from a re-analysis of the deposited data

How the results depend on the processing

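Against 871 genes called, 704 higher, 167 lower and 560 by 2-fold or more, edgeR on the 6 libraries alone called 0, 0, 0 and 0, with 3778 at an unadjusted p under 0.05. DESeq2 called 1512, 1082 higher and 430 lower. Voom with quality weights called 4615, 2736 higher and 1879 lower (59.3% higher), 1262 by 2-fold. Its library weights were 0.802, 5.7 and 0.503 in LPC_Ipsil, against 0.543, 1.57 and 2.1 in Sham_Ipsil. LPC_Ipsil replicate 2 thus counted far more than the rest of its group in every voom count. Without the low-count filter 524 were called, 418 higher and 106 lower, 344 by 2-fold. On log2(FPKM + 1), limma called 3, 2 higher and 1 lower (66.7% higher), 0 by 2-fold, and on log2(FPKM + 0.1) 51, 38 higher and 13 lower (74.5% higher), 27 by 2-fold. The cause of these differences was not tested. Leaving out 1 library gave 0 to 1660 called genes, 0 to 1345 higher, 0 to 315 lower and 0 to 1018 by 2-fold, the highest each time without LPC_Ipsil replicate 3. Without that library the groups did not overlap in 4365 genes upward and 3553 downward.

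The replicate block called 652 genes, 526 higher and 126 lower. Same-numbered libraries of LPC_Ipsil and Sham_Ipsil, taken as deviations from their group means, correlated at -0.00122, -0.0487 and -0.0591. These 3 values are too few to decide whether the numbers pair libraries or mark a batch. Pairing with the contralateral libraries was not examined. The log2 fold change of Nell1 ran from -0.9468 to -0.8979 with 1 library left out, with an edgeR adjusted p of 0.000181 to 0.0949, and its call was lost in 4 of these 6 fits.

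Some marker genes, none of them called, changed direction when 1 library was left out. Mog ran from -0.04091 to 0.4626, Ccr2 from -0.3705 to 1.504, Dcn from -0.3737 to 0.6577 and Ttr from -3.232 to 2.153 on the log2 scale. Low counts limit the precision of genes under about 1 CPM.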
